A study of Mus musculus with 4 samples.

Results

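The genes described here are the brakes and the first accelerators of the cell cycle in blood stem cells. They are 10 genes chosen by name. Of these, 6 are cyclin-dependent kinase (CDK) inhibitor genes: Cdkn1b, Cdkn1c, Cdkn2a, Cdkn2b, Cdkn2c and Cdkn2d. The others are the 3 D-type cyclin genes Ccnd1, Ccnd2 and Ccnd3, and the kinase gene Cdk6. Cdkn1a, another CDK inhibitor gene, is not among the 10. All 10 were found by symbol among the 19938 genes measured, and 9 had 1 probe set each while Cdkn1b had 2. RNA came from bone marrow cells of C57BL/6 mice aged 8 weeks, sorted for c-Kit and Sca-1 and against lineage markers, and labelled as haematopoietic stem cells (HSCs), a gate that also holds multipotent progenitors. There were 2 arrays of wild-type (WT) mice and 2 of mice labelled Hif1a-/-, after the gene of the subunit of HIF-1 that oxygen controls, and the titles number the arrays of each genotype 1 and 2, as biological replicates. The arrays of the second group are called knockout-labelled below, by their label alone. Which part of Hif1a was deleted, in which cells and with which driver, and how many mice went into an array, are not given in the sources used here. The p-values therefore measure the spread between these arrays.

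D-type cyclins are made in response to growth signals and bind CDK4 or CDK6, and the active kinase phosphorylates the retinoblastoma protein and so frees E2F factors to start DNA replication. Inhibitors of the INK4 family, encoded by Cdkn2a to Cdkn2d, bind CDK4 and CDK6 and keep cyclin D off them. Inhibitors of the CIP/KIP family, such as the products of Cdkn1b and Cdkn1c, bind cyclin-CDK complexes and are known for holding blood stem cells in quiescence, while Cdkn2a is known as a gene of senescence that Polycomb proteins keep silent in young stem cells.

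The arrays divided by their number more than by their genotype. Values are log2 signals, so a difference of 1 is a doubling. Over all genes, 1108 of 19938 had an adjusted p under 0.05 between arrays numbered 2 and arrays numbered 1 (limma, Benjamini-Hochberg, genotype as a term), against 0 between genotypes, where 145 had an unadjusted p under 0.05. The 2 fits differ, since the genotype fit had no number term. With the replicate number as a block, the genotype fit again called 0 genes, with 478 at an unadjusted p under 0.05 in limma. Hif1a itself read 10.37 (array 1) and 10.99 (array 2) in WT, beside 10.58 and 10.64 in the knockout-labelled arrays. Since the probe set may lie outside the deleted part, this does not check the labels. Kit, the receptor used in the sort, read 12.57 and 11.51 in WT and 12.37 and 11.32 in the knockout-labelled arrays, and Ly6a, which encodes Sca-1, is not analysed here. Each gene is therefore given by genotype and by number, where a number is a label shared by 1 array of each genotype and names no treatment.

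Between the genotypes, none of the 10 genes passed the test. Of the 10 genes 0 had an adjusted p under 0.05 in limma (0% of all genes did). An unadjusted p under 0.05 was found for 0 (0.727% of all genes had one). This last count became 1 (Ccnd3) under quantile normalization and under cyclic loess, where 140 and 138 of 19938 genes had such a p. The differences, Hif1a-/- minus WT, ran from −0.18 for Ccnd2 to 0.33 for Ccnd3, with a median of 0.04 beside 0.00 over all genes. The knockout-labelled arrays both exceeded both WT arrays for Cdkn1b, Cdkn2b and Ccnd3, which is 3 of 10 genes where 16.1% of all genes did so, and both lay below both for Cdkn2c, which is 1 of 10 where 8.33% did. The sign of the difference was the same in number 1 and number 2 for 8 of the 10 genes, against 48.4% of all genes.

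**Figure D1:**
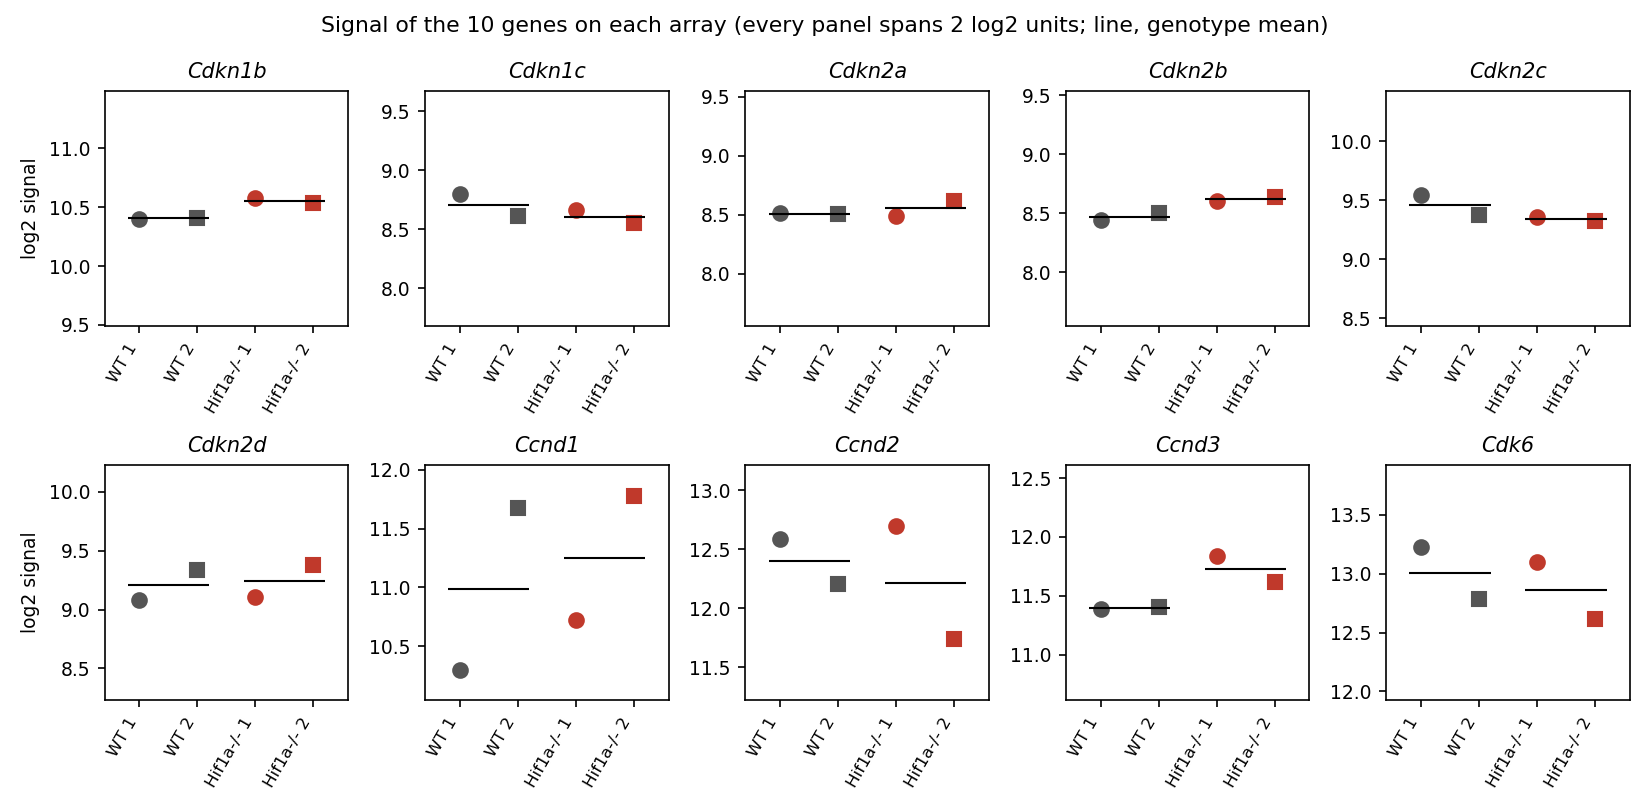
Log2 signal of each of the 10 genes (1 panel each, every vertical axis spanning 2 log2 units) on WT arrays 1 and 2 (grey) and on knockout-labelled arrays 1 and 2 (red). Circles are arrays numbered 1, squares arrays numbered 2 and lines genotype means (n = 2). Ccnd1 spans 1.48 log2 units and is high in both arrays numbered 2, whereas the probe sets shown for the 6 CDK inhibitor genes each span 0.30 or less. A second Cdkn1b probe set, not shown, read 9.15 and 8.96 in WT and 9.13 and 10.10 in the knockout-labelled arrays.

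Because HIF-1 binds the core ACGTG or GCGTG, the sequence just upstream of the transcript start is shown for Cdkn1b and Ccnd3, which were higher in both knockout-labelled arrays, and for Cdk6, which was lower in both arrays numbered 2. Cdkn2b was higher in both knockout-labelled arrays too, and its window, which holds 1 core, is not printed. The set of RefSeq starts used here (GRCm38.p6) gave 10 windows of 250 bases before a transcript start for 7 of the 10 genes. That set had no entry for Cdkn1c, Ccnd1 and Ccnd2. Windows follow for Cdkn1b at chr6:134920151-134920400 (+ strand), for the 2 starts of Ccnd3 at chr17:47504801-47505050 (+ strand) and chr17:47593217-47593466 (+ strand), and for Cdk6 at chr5:3343643-3343892 (+ strand), written 5′ to 3′ in the direction of the gene with each ACGTG or GCGTG on either strand in capitals.
Cdkn1b: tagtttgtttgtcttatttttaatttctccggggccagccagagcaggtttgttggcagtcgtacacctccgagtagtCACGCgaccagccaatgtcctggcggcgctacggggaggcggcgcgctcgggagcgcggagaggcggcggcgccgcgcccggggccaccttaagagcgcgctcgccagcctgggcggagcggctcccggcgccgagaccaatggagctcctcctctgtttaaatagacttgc
Ccnd3 start 1: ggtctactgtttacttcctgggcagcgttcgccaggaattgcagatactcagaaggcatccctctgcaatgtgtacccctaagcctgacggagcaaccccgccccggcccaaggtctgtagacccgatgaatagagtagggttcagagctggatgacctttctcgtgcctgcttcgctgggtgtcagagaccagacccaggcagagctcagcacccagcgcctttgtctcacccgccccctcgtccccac
Ccnd3 start 2: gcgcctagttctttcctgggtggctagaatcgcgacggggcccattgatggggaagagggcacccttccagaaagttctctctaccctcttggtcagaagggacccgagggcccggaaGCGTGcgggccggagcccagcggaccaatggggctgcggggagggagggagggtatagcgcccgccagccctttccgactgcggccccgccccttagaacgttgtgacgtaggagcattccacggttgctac
Cdk6: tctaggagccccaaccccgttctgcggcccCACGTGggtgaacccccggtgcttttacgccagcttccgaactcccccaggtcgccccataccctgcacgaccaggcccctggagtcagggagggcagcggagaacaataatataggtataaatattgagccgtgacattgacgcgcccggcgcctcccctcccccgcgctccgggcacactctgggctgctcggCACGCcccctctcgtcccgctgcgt
The Cdkn1b window holds 1 such core and the second Ccnd3 window 1, while the first Ccnd3 window holds 0. The Cdk6 window holds 3, of which 2 are the overlapping strands of a single CACGTG, the E-box bound by MYC and USF factors. In all, 8 of the 10 windows of the gene set held at least 1 core, against 38.6% of 32851 RefSeq windows of the same length. The windows of the set had a GC content of 42.8% to 78.4%, beside a median of 52.4% over all windows. Every window of the set but the first of Cdkn2c (42.8%) lay above that median. The part of base composition in the count of windows with a core was not tested. The E2F motifs TTTCGCGC and TTTGGCGC were found in 0 of the 10 windows and in 0.654% of all. A match describes letters and shows no binding.

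Among the CIP/KIP genes, Cdkn1b was slightly higher in both knockout-labelled arrays and Cdkn1c overlapped. Cdkn1b encodes p27, which restrains cyclin E and cyclin A complexes with CDK2. Its log2 signal was 10.40 in WT array 1, 10.41 in WT array 2, 10.58 in knockout-labelled array 1 and 10.53 in knockout-labelled array 2. The WT arrays were nearly identical and both knockout-labelled arrays lay above them, by 0.18 in number 1 and 0.13 in number 2. The mean difference was 0.15 (SE 0.11, 95% interval −0.14 to 0.45, n = 2 per genotype, adjusted p = 0.9998 in limma), or 1.11-fold. A second and dimmer Cdkn1b probe set gave another picture, with 9.15 and 8.96 in WT and 9.13 and 10.10 in the knockout-labelled arrays. There knockout-labelled array 2 stood 1.14 above WT array 2, while the arrays numbered 1 differed by −0.02. Averaging both probe sets gave a genotype difference of 0.36, and quantile normalization of the arrays gave 0.25.

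Cdkn1c encodes p57, an imprinted inhibitor strongly tied to stem cell quiescence. It read 8.80 and 8.61 in WT arrays 1 and 2, beside 8.66 and 8.55 in the knockout-labelled arrays. The groups overlapped, and the difference was −0.10 (SE 0.13, 95% interval −0.46 to 0.26), with −0.14 in number 1 and −0.06 in number 2. Without WT array 1 it was −0.01 and without WT array 2 −0.19. The interval holds differences of either sign.

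Of the INK4 genes, Cdkn2a and Cdkn2b differed by 0.15 or less between the genotypes. Cdkn2a, whose probe set does not separate its INK4a and ARF transcripts, read 8.52 and 8.50 in WT and 8.49 and 8.62 in the knockout-labelled arrays. The groups overlapped, and the difference was 0.04 (SE 0.11, 95% interval −0.27 to 0.36). Cdkn2b, its neighbour on the chromosome and a target of TGF-beta signalling, read 8.44 and 8.50 in WT and 8.60 and 8.64 in the knockout-labelled arrays. Both of the latter lay above both WT arrays, by 0.16 and 0.14 within the numbers, and the mean difference was 0.15 (SE 0.11, 95% interval −0.15 to 0.45). For scale, 22 genes of tissues other than blood, such as liver and muscle genes, had mean signals between 6.26 and 9.23. Their median was 7.60 to 7.71 on the 4 arrays, and the median of all genes was 8.56. The means of Cdkn1c, Cdkn2a, Cdkn2b and Cdkn2d lay inside the range of 6.26 to 9.23, above the medians of 7.60 to 7.71. The table gives no detection calls, so whether RNA of these genes was present cannot be told from these values.

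Cdkn2c and Cdkn2d are the INK4 genes known to be expressed in cycling blood progenitors. Cdkn2c, which encodes p18 and is known to limit stem cell self-renewal, read 9.54 and 9.38 in WT and 9.36 and 9.32 in the knockout-labelled arrays. Both of the latter were below both WT arrays, though WT array 2 and knockout-labelled array 1 were almost equal. The difference was −0.12 (SE 0.12, 95% interval −0.46 to 0.22), with −0.18 in number 1 and −0.05 in number 2. It was −0.03 without WT array 1, −0.20 without WT array 2 and −0.04 under quantile normalization. Cdkn2d, which encodes p19, read 9.08 and 9.33 in WT and 9.11 and 9.38 in the knockout-labelled arrays, with both arrays numbered 2 above both numbered 1 and a genotype difference of 0.04 (SE 0.17).

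Among the D-type cyclins no gene passed the test between the genotypes, and Ccnd3 was the only member of the set with an unadjusted p under 0.1. Ccnd3, the D-type cyclin most used in lymphoid precursors, read 11.39 and 11.40 in WT arrays 1 and 2, beside 11.84 and 11.62 in the knockout-labelled arrays. The WT arrays agreed closely, both other arrays lay above them, and the gap was 0.45 in number 1 and 0.21 in number 2. The mean difference was 0.33 (SE 0.13, 95% interval −0.03 to 0.70, 1.26-fold, unadjusted p = 0.0652, adjusted p = 0.9998 in limma), and 237 of 19938 genes had a smaller p. The unadjusted p was 0.0372 under quantile normalization (0.42) and 0.0226 under cyclic loess (0.43), with no gene passing after adjustment in limma. Most B lineage markers had a positive genotype difference too, 12 of 15 beside 10095 of 19938 genes, with a median of 0.37 beside 0.00. Of the 15, 0 had an adjusted p under 0.05 but 6 an unadjusted p under 0.05 (0.727% of all genes), and 8 were higher in both knockout-labelled arrays than in both WT arrays (16.1% of all genes). Their summed linear signal was 17000 and 16600 in WT and 27700 and 18100 in the knockout-labelled arrays. Cd79a, a B-cell receptor component, read 10.46 and 10.41 against 11.73 and 11.26. Other marker lists leaned to 1 side between genotypes as well. Positive differences were found for 16 of 16 neutrophil granule markers (median 0.53), 17 of 20 T and NK cell markers (0.20) and 15 of 21 monocyte, macrophage and dendritic cell markers (0.29). Negative ones were found for 22 of 26 stem cell markers (−0.21) and 13 of 15 myeloid progenitor markers (−0.22). In each of these lists 0 genes had an unadjusted p under 0.05 in limma. No gene read 0 on these arrays (lowest signal 3.32), so a marker's signal alone does not show that its cells were present. The part of the B lineage and other markers in the Ccnd3 difference was not tested. In such bulk samples fewer cells of a type and less RNA per cell cannot be told apart.

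For Ccnd1, Ccnd2 and Cdk6 the difference between the genotypes was smaller than the spread between arrays of a genotype. The Ccnd1 difference was 0.26 (SE 0.62, 95% interval −1.46 to 1.99), with 0.43 in number 1 and 0.10 in number 2. The Ccnd2 difference was −0.18 (SE 0.38, 95% interval −1.23 to 0.87), made of 0.11 in number 1 and −0.47 in number 2. The Cdk6 difference was −0.15 (SE 0.25, 95% interval −0.85 to 0.56), with −0.13 and −0.16 within the numbers. The wide intervals follow the distance between arrays of 1 genotype, which for Ccnd1 gave 10.99 ± 0.97 (SD, n = 2) in WT and 11.25 ± 0.74 (SD, n = 2) in the knockout-labelled arrays. With the replicate number as a block, the unadjusted p in limma went from 0.693 to 0.129 for Ccnd1. It went from 0.658 to 0.359 for Ccnd2 and from 0.593 to 0.301 for Cdk6, with an adjusted p of 0.98 for each gene. Leaving out WT array 1 or knockout-labelled array 2 turned the sign for these 3 genes, to −0.42 and −0.26 for Ccnd1, 0.01 and 0.30 for Ccnd2 and 0.08 and 0.09 for Cdk6. Such a fit leaves a genotype with an array of a single number, so the difference between numbers enters the genotype difference. Within the numbers, the Ccnd1 and Cdk6 differences did not change sign.

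**Figure D2:**
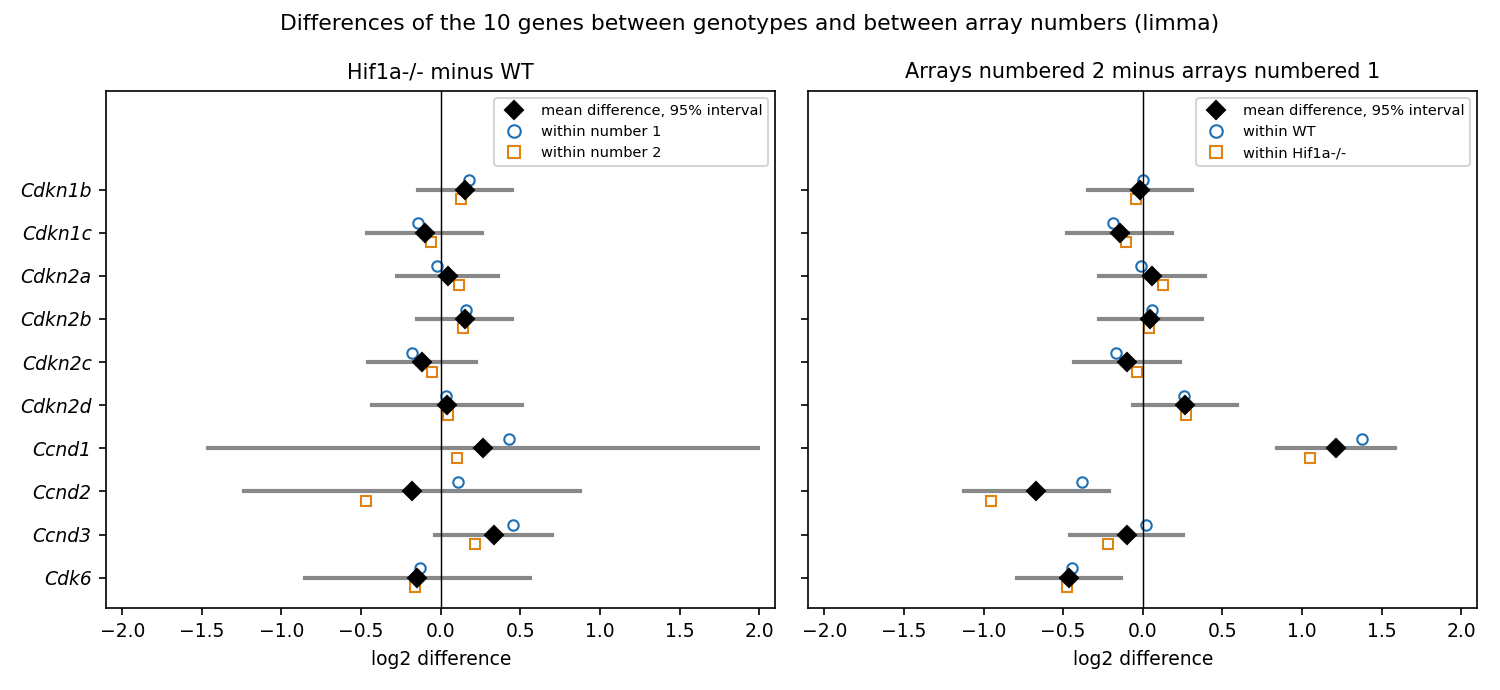
Log2 differences of the 10 genes, Hif1a-/- minus WT on the left and arrays numbered 2 minus arrays numbered 1 on the right. Diamonds are limma's mean differences with 95% intervals, and open circles and squares are the differences within number 1 and 2 (left) or within WT and Hif1a-/- (right). All intervals on the left cross 0, and on the right those of Ccnd1 (0.84 to 1.59), Ccnd2 (−1.13 to −0.21) and Cdk6 (−0.79 to −0.14) do not.

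Between the array numbers, Ccnd1 rose and was the only gene of the 10 to pass the test. Of the 10 genes 1 was called, where 5.56% of all genes were called (3.29% higher in number 2 and 2.27% lower). Ccnd1 encodes cyclin D1, the D-type cyclin induced by growth factor, Wnt and integrin signals. Its log2 signal was 10.30 in WT array 1, 11.68 in WT array 2, 10.73 in knockout-labelled array 1 and 11.78 in knockout-labelled array 2. Both arrays numbered 2 lay about 1 unit or more above their partners of the same genotype, by 1.37 in WT and 1.05 in the knockout-labelled arrays. The mean difference was 1.21 (SE 0.15, 95% interval 0.84 to 1.59), a 2.32-fold rise (adjusted p = 0.0165 in limma), and 357 genes had a larger positive difference. The call ended without WT array 1 (difference 1.00, adjusted p = 0.0869 in limma with no genotype term), and over the alternatives tried the adjusted p ran from 9.76e-05 to 0.0869.

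Ccnd2 and Cdk6 lay lower in both arrays numbered 2 without passing the test over all genes. Ccnd2 encodes cyclin D2, the D-type cyclin prominent in haematopoietic stem and progenitor cells. Its log2 signal was 12.59 in WT array 1, 12.21 in WT array 2, 12.69 in knockout-labelled array 1 and 11.74 in knockout-labelled array 2. Knockout-labelled array 2 was the lowest of the 4, and the difference between numbers was −0.38 in WT and −0.96 in the knockout-labelled arrays. The mean difference was −0.67 (SE 0.18, 95% interval −1.13 to −0.21, unadjusted p = 0.0128, adjusted p = 0.123 in limma). It passed under quantile normalization (−0.78, adjusted p = 0.0402 in limma) and cyclic loess (−0.71, adjusted p = 0.0363 in limma).

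Cdk6 encodes the kinase partner of D-type cyclins whose level is known to govern how fast stem cells leave quiescence. It read 13.23 and 12.78 in WT arrays 1 and 2, beside 13.10 and 12.62 in the knockout-labelled arrays. Both arrays numbered 2 were lower, by nearly equal amounts in WT (−0.45) and in the knockout-labelled arrays (−0.48). The mean difference was −0.46 (SE 0.13, 95% interval −0.79 to −0.14, unadjusted p = 0.0145, adjusted p = 0.132 in limma). Ccnd1, Ccnd2 and Cdk6 were thus 3 of 10 genes with an unadjusted p under 0.05, where 18% of all genes had one.

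By the brightest probe set of each gene, Ccnd3 and the CDK inhibitors differed little between the numbers. The Ccnd3 difference was −0.10 (SE 0.14), with 0.02 in WT and −0.22 in the knockout-labelled arrays. By these probe sets Cdkn2d had the largest difference of the inhibitors, 0.26 (SE 0.13, 95% interval −0.06 to 0.59, adjusted p = 0.394 in limma). It was higher in number 2 by 0.26 in WT and 0.27 in the knockout-labelled arrays. Cdkn1c differed by −0.15 (SE 0.13) and was lower in both arrays numbered 2. The remaining 4 inhibitors lay between −0.10 for Cdkn2c and 0.06 for Cdkn2a. The second and dimmer Cdkn1b probe set had a larger difference, 0.39, with knockout-labelled array 2 (10.10) the highest of its 4 values. Averaging both Cdkn1b probe sets gave 0.18. Over the 10 genes the median difference was −0.06 beside −0.02 for all genes. Both arrays numbered 2 lay above both arrays numbered 1 for 2 of 10 genes (20.4% of all genes) and below them for 3 of 10 (27.2% of all genes).

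**Figure D3:**
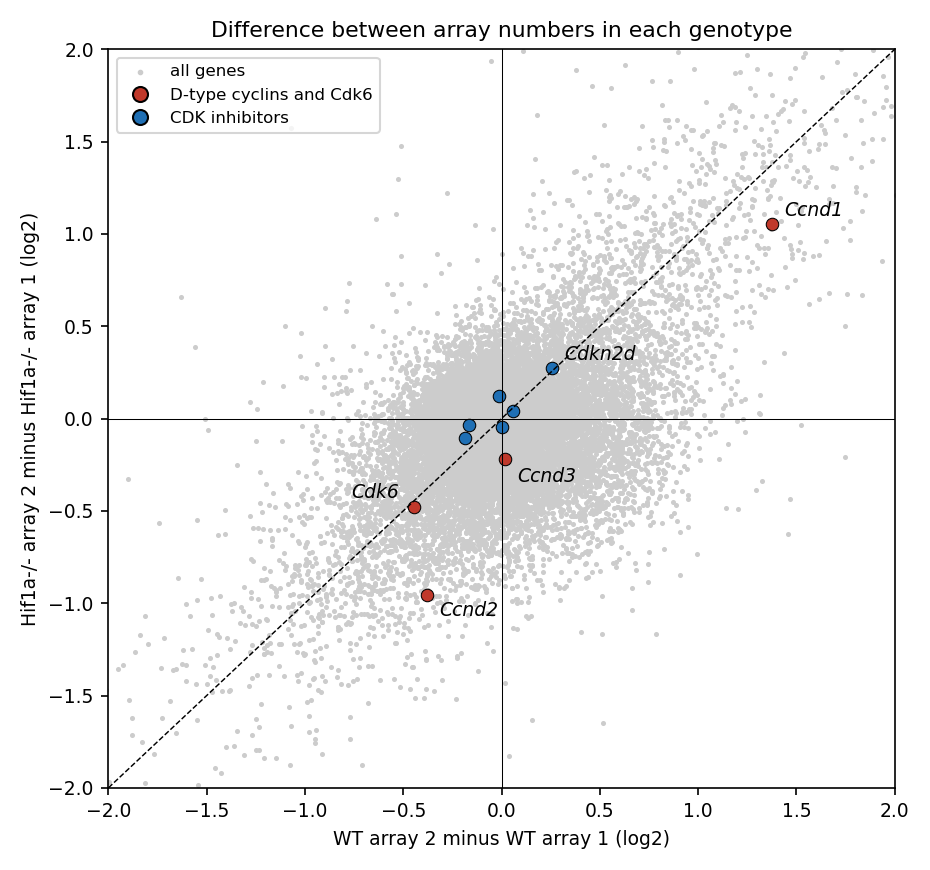
Log2 difference between array 2 and array 1 in WT (horizontal) and in the knockout-labelled arrays (vertical) for all 19938 genes (grey, with 209 outside the axes), the CDK inhibitor genes (blue) and the D-type cyclins and Cdk6 (red). The dashed line marks equal differences. Ccnd1 lies at 1.37 and 1.05, Ccnd2 at −0.38 and −0.96, Cdk6 at −0.45 and −0.48, and the inhibitors near 0.

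Markers of several cell types moved with the array number and thus with Ccnd1, Ccnd2 and Cdk6. Over all genes, for comparison, 8885 of 19938 differences were positive, with 3.29% called higher and 2.27% called lower. All 16 measured neutrophil granule markers had a positive difference and 11 were called higher in limma, with a summed linear signal of 12600 and 11300 in the arrays numbered 1 (WT, Hif1a-/-) and 35300 and 76400 in those numbered 2, and S100a8 read 10.14 and 9.92 against 11.93 and 12.84. Of 19 mast cell and basophil markers 16 were positive and 10 called higher (22600 and 24400 against 41300 and 40100), and the basophil protease gene Mcpt8 read 9.87 and 10.38 against 12.23 and 12.36. Of 21 monocyte, macrophage and dendritic cell markers 20 were positive, with 15 called higher and 1 lower (25600 and 29500 against 78800 and 94300). Of 26 stem cell markers 22 were negative, with 9 called lower and 2 higher (52100 and 47300 against 34000 and 23700), and Kit fell by 1.06 on the log2 scale (adjusted p = 0.0165 in limma). Of 16 markers of multipotent and lymphoid-primed progenitors, which the sort also holds, 12 were negative, with 7 called lower and 1 higher (39600 and 39900 against 25500 and 25400). Of 15 myeloid progenitor markers 14 were positive and 7 called higher (45500 and 37700 against 74600 and 64100). Of 20 T and NK cell markers 17 were positive and 5 called higher (10800 and 10300 against 13800 and 17000). Erythroid and megakaryocyte markers held 8 positive of 14 with 2 called higher, and B lineage markers 4 of 15 with 1 called in each direction. No gene read 0 on these arrays (lowest signal 3.32), so a marker's signal alone does not show that its cells were present. The part of these cells in the values of Ccnd1, Ccnd2 and Cdk6 was not tested.

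The rest of the pathway was read from lists of cell cycle genes around these members. The first list held partner cyclins, CDKs, CDC25 genes and other CDK regulators, and also named Cdkn1a. Among its 20 measured genes, 0 passed between genotypes (0% of all genes) and 0 between numbers (5.56% of all genes). Between numbers Ccne1, the cyclin that acts after the D-type cyclins, had the smallest p of the positive differences (0.79, SE 0.20, adjusted p = 0.101 in limma), and Wee1, the kinase that restrains CDK1, of the negative ones (−0.83, SE 0.19, adjusted p = 0.0882 in limma). Ccng1 and Cdk2 came next at 0.31 and −0.34. Between genotypes Cdc25b, a phosphatase that activates CDKs, was at 0.47 (SE 0.19) and Cdc25a at 0.15, with Ccnh and Cdc25c at −0.26 each.

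Of the 19 RB, E2F and DREAM genes, 1 passed between numbers, where 5.56% of all genes did. This was Tfdp2, which encodes a dimer partner of E2F factors, lower in number 2 by −0.74 (SE 0.13, adjusted p = 0.0429 in limma) with 10.65 and 10.72 in the arrays numbered 1 and 9.97 and 9.93 in those numbered 2. E2f3 was at −0.34, Rb1, which encodes the main substrate of cyclin D kinases, at 0.43 and Mybl2 at 0.46. Between genotypes 0 of the 19 passed. E2f2, an activating E2F gene, had the smallest unadjusted p there (0.62, SE 0.12, unadjusted p = 0.00733, adjusted p = 0.9998 in limma), and read 9.27 and 9.44 in WT and 9.95 and 9.99 in the knockout-labelled arrays. E2f7 was at 0.16, E2f4 at −0.12 and E2f6 at −0.42.

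Of the upstream regulators, a few passed between the numbers. Of 41 measured genes 1 was called higher (3.29% of all genes) and 4 lower (2.27% of all genes), with a median of −0.20 (−0.02 over all genes). Id2, an inhibitor of helix-loop-helix factors, rose by 2.89 (SE 0.17, adjusted p = 0.00403 in limma), from 9.47 and 10.18 in the arrays numbered 1 to 12.63 and 12.81 in those numbered 2. Mycn, a MYC family gene, fell by 1.65 and Smad3, a mediator of TGF-beta signals, fell by 0.83, and Mef2c and Foxo3 were the other genes called lower (−1.35 and −0.70). Id1 was at 0.82 without passing (adjusted p = 0.0719 in limma). Between genotypes 0 of the 41 passed, with Ets1, an activator of Cdkn2a, at 0.59 (SE 0.16), Hes1 at 0.49, Gfi1 at −0.25 and Max at −0.20.

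Of the turnover and proliferation genes, 1 in all passed the test. Of 18 measured turnover genes 1 was called between numbers (5.56% of all genes were), Cdh1 at 0.99 (adjusted p = 0.0192 in limma). That symbol is E-cadherin and entered the list through the shared name of an activator of the anaphase-promoting complex, which is Fzr1. The cyclin D1 ubiquitin ligase gene Fbxo4 was at 0.56 and Fbxo31 at −0.39 between numbers, and Skp2, whose product marks p27 for degradation, at −0.21. Between genotypes 0 of the 18 passed, with Ambra1, which directs D-type cyclins to degradation, at 0.26, Fbxw7 at 0.07, Cul4a at −0.24 and Cops5 at −0.29. Of 35 proliferation genes 0 passed in either comparison (0% of all genes between genotypes and 5.56% between numbers). Their median genotype difference was −0.04, made of 0.24 in number 1 and −0.32 in number 2. Ccnd2, at 0.11 and −0.47, had the same signs within the numbers. So had the medians of other lists, such as partner cyclins and CDKs (0.16 and −0.35) and erythroid and megakaryocyte markers (0.12 and −0.40). The median of the upstream regulators did not (−0.01 and −0.08). Mki67 was at 0.22 and Cdc6 at 0.13 between genotypes, with Cdt1 at −0.33 and Cdc20 at −0.34, and between numbers Gmnn and Birc5 were at 0.36 each, Mcm7 at −0.36 and Cenpf at −0.32.

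**Figure D4:**
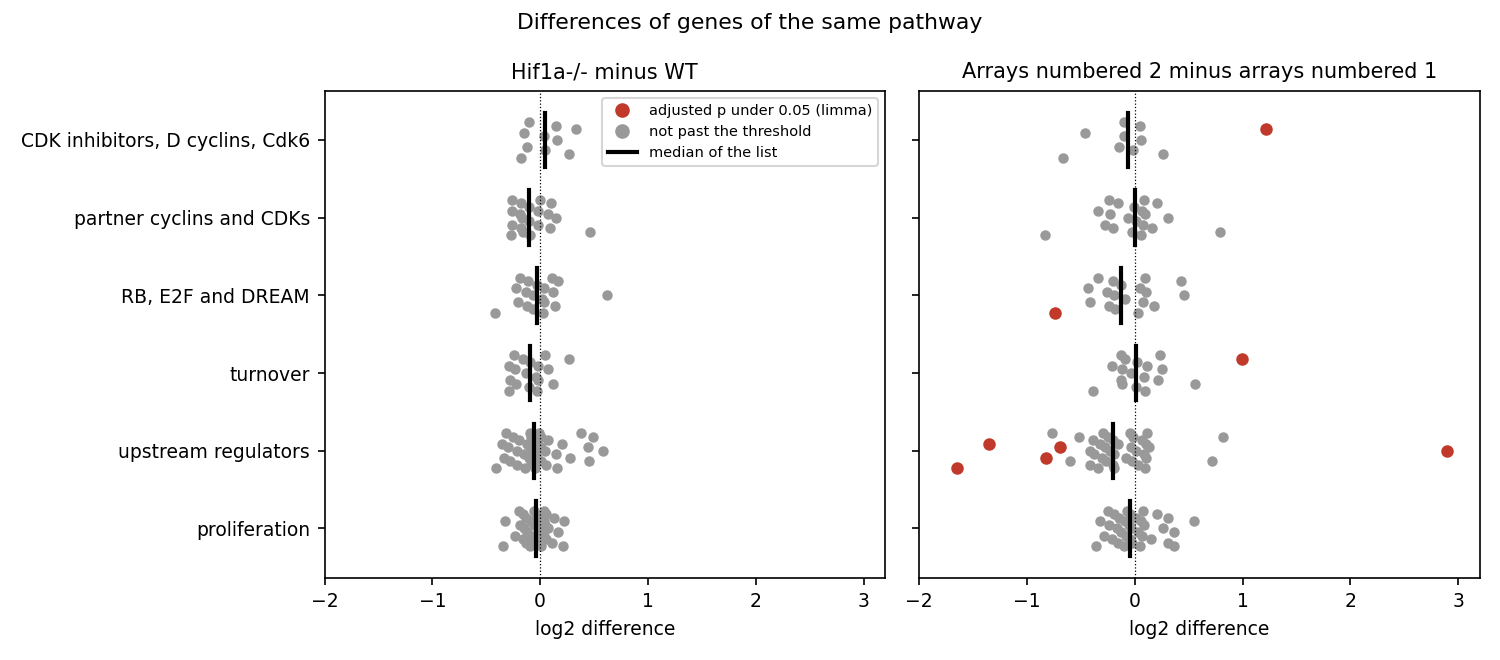
Log2 differences of the 10 genes and of 5 lists of genes of the same pathway, Hif1a-/- minus WT on the left and arrays numbered 2 minus arrays numbered 1 on the right. Each point is a gene, red where the adjusted p was under 0.05 in limma, and black bars are list medians. No gene is red on the left, and on the right Ccnd1 (1.21) and Id2 (2.89) are the highest of their rows.

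The genes most like the 3 members with the widest range were sought by the root mean square distance between log2 values over the 4 arrays, each gene centred on its own mean. Closest to Ccnd1 were Lgmn, which encodes a lysosomal protease (distance 0.038), and Fam241a (0.039). Lgmn read 8.94 and 10.36 in WT arrays 1 and 2, beside 9.44 and 10.51 in the knockout-labelled arrays. Closest to Ccnd2 were the urea transporter gene Slc14a1 (0.023) and Rpgrip1l (0.027), and closest to Cdk6 were 1700030K09Rik (0.009) and Klhl3 (0.010). With 4 arrays and 19938 genes such near matches are a description only.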

How the data were processed

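RNA of sorted HSCs was measured on 4 Affymetrix whole-transcript arrays. The authors deposited log2 signals per probe set, for which the submitters' processing notes name RMA and Affymetrix Expression Console 1.1. That the scale is log2 was read from the span of the values. The deposited arrays were not on a single distribution, with medians over all probe sets of 8.31 and 8.19 (WT) and 8.32 and 8.35 (Hif1a-/-), so other scalings were among the alternatives. The number of arrays limits the precision. The genome build behind the probe sets was not given in the sources used here.

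Genes were named from the 21789 of 35556 probe sets that the platform annotation gives 1 symbol (it gives 1621 several and does not list 12146), and the probe set with the highest mean of the 4 arrays stood for each of 19938 genes. limma 3.58.1 (R 4.3.3, lmFit with eBayes, two-sided) compared the genotypes with no further term, and the array numbers with genotype as a term. Benjamini-Hochberg adjustment ran over all genes and 0.05 was the threshold. Differences within a number or a genotype set 1 array against 1 and have no test. List sums are of linear signals. Named genes are all 10 members, up to 2 genes per list, direction and comparison with the smallest unadjusted p, the 2 genes nearest to each of the 3 widest members, and fixed defining markers; Mef2c and Foxo3 were named after their values were seen, as the remaining genes called in their list. The members and lists were chosen with earlier results of these data known. Alternatives were the replicate block (or no genotype term), leaving out each array in turn, median centring, quantile normalization or cyclic loess, the dimmest 40% of genes left out, averaged probe sets, and eBayes with trend and robust. The fits were tested on simulated data with independent noise. The simulated genotype comparison held no difference between array numbers, so it does not measure the power or error of that fit on these arrays.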

Additional observations from a re-analysis of the deposited data

Results flagged for a closer look

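For 4 genes the within-pair differences had opposite signs, each from 1 array against 1, so the disagreement was not tested. The Ccnd2 genotype difference was 0.11 in number 1 and −0.47 in number 2, a gap of −0.57. For Cdkn2a it was −0.02 and 0.11, a gap of 0.14, and its difference between numbers was −0.01 in WT and 0.12 in the arrays labelled Hif1a-/-, again a gap of 0.14. The Ccnd3 difference between numbers was 0.02 in WT and −0.22 in the arrays labelled Hif1a-/-, a gap of −0.24. For Cdkn1b that difference was 0.00 in WT, where array 2 was the higher by less than the rounding, and −0.04 in the arrays labelled Hif1a-/-, a gap of −0.05.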

How the results depend on the processing

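With 2 arrays per genotype and no detection calls, small differences and the presence of a transcript cannot be resolved. Between genotypes, 0 genes were called by limma in every setting run, with 39 to 622 genes at an unadjusted p under 0.05. The replicate number as a block (replicate block) left 0 genes called, 0 of the 10 genes called and a median over them of 0.04, and raised the genes at an unadjusted p under 0.05 from 145 to 478. Arrays of the same number deviated together (r = 0.67 over 19938 genes), but with 2 pairs the labels alone do not show that the numbers pair the samples. The median of the 10 genes between genotypes was 0.07 under quantile normalization, 0.03 under median centring and 0.05 under cyclic loess, and 0.03 to 0.12 with an array left out. Signs turned between genotypes without WT replicate 1 for Cdkn2d (−0.09), Ccnd1 (−0.42), Ccnd2 (0.01) and Cdk6 (0.08), and without Hif1a-/- replicate 2 for Cdkn2a (−0.02), Cdkn2d (−0.10), Ccnd1 (−0.26), Ccnd2 (0.30) and Cdk6 (0.09). With each array left out in turn these reached at the other end 0.95 for Ccnd1, −0.66 for Ccnd2, −0.39 for Cdk6, 0.11 for Cdkn2a and 0.18 for Cdkn2d. Each fit with an array left out has a genotype with a single number, so the difference between numbers enters the genotype difference. Cdkn1b, Cdkn1c, Cdkn2b, Cdkn2c and Ccnd3 kept their sign between genotypes in all 11 alternatives, but sizes moved: with an array left out Cdkn1c ran from −0.19 to −0.01 and Cdkn2c from −0.20 to −0.03, Cdkn2c was −0.04 under quantile normalization and −0.06 under cyclic loess, and Cdkn1b was 0.25 under both and 0.36 with averaged probe sets. Ccnd3 reached an unadjusted p of 0.0372 (0.42) under quantile normalization and 0.0226 (0.43) under cyclic loess in limma.

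Between array numbers, 2 of the 10 genes were called under quantile normalization and under cyclic loess (Ccnd1 and Ccnd2), and 0 to 3 with an array left out, where no genotype term could be fitted. Genes called were 319 without WT replicate 1, 458 without Hif1a-/- replicate 1, 4661 without WT replicate 2 and 4602 without Hif1a-/- replicate 2, against 1108. Ccnd1 kept its sign in all 11 alternatives and missed the threshold in 1 of them (1.00, adjusted p = 0.0869 in limma without WT replicate 1). Ccnd2 passed in 4 (−0.78, −0.71, −0.90 and −0.43) and Cdk6 in 2 (−0.54 without WT replicate 2 and −0.38 without Hif1a-/- replicate 2). The median of the 10 genes was −0.02 under cyclic loess, −0.03 with averaged probe sets and −0.08 to 0.06 with an array left out. Signs turned for Cdkn1b under median centring (0.00), cyclic loess (0.00) and averaged probe sets (0.18) and without Hif1a-/- replicate 1 (0.07) or WT replicate 2 (0.04). They turned for Ccnd3 without Hif1a-/- replicate 1 (0.12) or WT replicate 2 (0.00), for Cdkn2b without WT replicate 1 (−0.03) or Hif1a-/- replicate 2 (−0.02), and for Cdkn2a without Hif1a-/- replicate 2 (0.00). With each array left out the other ends were −0.11 for Cdkn1b, −0.33 for Ccnd3, 0.13 for Cdkn2b and 0.11 for Cdkn2a. The causes were not tested.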
